A study of Mus musculus with 3 samples.

Results

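The miR-181 family of microRNAs (miRNAs) was read on 2-colour arrays in CD4+CD8+ T cells, which carry both markers of the double-positive stage of thymocyte development, from Balb/c mice. The study was about NOTCH1 in T-cell acute lymphoblastic leukaemia. Its members are the 5 array probes named hsa-miR-181a, hsa-miR-181a*, hsa-miR-181b, hsa-miR-181c and hsa-miR-181d, taken by name with the mismatch probes left aside. They are 5 of the 276 probes whose miRNA name matches a mouse gene, out of 1491 probe identifiers. The 3 groups were tumor cells expressing ICN1, the constitutively active intracellular part of the receptor NOTCH1, then ICN1-expressing cells that were not malignant, and normal control thymocytes without a stated transgene. Of the sample titles, only that of the control names thymocytes. Each group was 1 sample on 1 array. On every array the sample carried the dye Hy3 and an equal-parts pool of the 3 samples carried Hy5. The labels give neither the promoter or vector behind ICN1, nor the age of the mice, nor how many animals gave each sample. With 1 array per group there was no test between groups and no p-value. Errors below are the spread over up to 4 replicate spots on one array, which leaves out differences between animals and between arrays.

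miRNAs are short RNAs that pair with messenger RNAs, mainly through a seed at bases 2 to 8, and lower their translation or stability. In mouse thymus miR-181a is abundant at the double-positive stage, where it is known to raise sensitivity of the T-cell receptor by repressing several phosphatases that dampen its signal. Work in mice also ties the Mir181a-1 and Mir181b-1 gene pair to NOTCH1-driven leukaemia and to the development of natural killer T cells.

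The mature sequences are shown because they tell how closely the members resemble each other. RefSeq (GRCm38.p6) lists 6 family genes in 3 pairs. Mir181a-1 (chr1:137966455-137966541, plus strand) lies 97 bases before Mir181b-1 (chr1:137966639-137966718, plus strand). Mir181a-2 (chr2:38852735-38852810, plus strand) lies 1019 bases before Mir181b-2 (chr2:38853830-38853918, plus strand). Mir181d (chr8:84178716-84178787, minus strand) and Mir181c, whose guide arm is at chr8:84178924-84178945 on the minus strand, are 85 bases apart. The seed is in capitals, and the first 4 sequences are the guide (5p) arms.
miR-181a: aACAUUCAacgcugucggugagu
miR-181b: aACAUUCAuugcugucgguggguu
miR-181c: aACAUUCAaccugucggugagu
miR-181d: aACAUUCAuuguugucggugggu
miR-181a-1-3p: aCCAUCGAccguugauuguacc
miR-181a-2-3p: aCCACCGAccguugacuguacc

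All 4 guide arms carry the same seed, which no other of the 1679 mature names in the table carries. With positions counted from the 5′ end of the sequence it is compared with, miR-181c lacks 1 base of miR-181a, at position 11, and is otherwise the same. Against miR-181b, miR-181d differs by C12U and by 1 missing base at the 3′ end. Against miR-181a, miR-181b differs by A9U, C10U, A21G and 1 added base. The guide arm of miR-181a is identical from both of its genes, so no probe can tell Mir181a-1 from Mir181a-2 by it. The 3p arm from Mir181a-2 differs from that of Mir181a-1 by U5C and U16C. The Mir181a-1 hairpin, printed here with both arms in capitals, gives miR-181a on its left side and a 3p arm of the kind called miR-181a* on its right.
Mir181a-1: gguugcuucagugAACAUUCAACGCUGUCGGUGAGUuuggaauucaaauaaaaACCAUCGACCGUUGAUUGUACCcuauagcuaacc

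The probes' own sequences are not in the files used here. Which 3p arm the miR-181a* probe was made for, and whether the human-named probes equal the mouse sequences, was therefore not checked.

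All family signals were dim, and only part of them moved with the groups. The values that follow are net signals, the spot's mean intensity minus its local background median. A spot counts as detected above its background median plus 2 background SDs. Background medians were between 70 and 82 in Hy3 and between 88 and 100 in Hy5, and no family spot was saturated. Empty spots gave a median net Hy3 of 1.13 on the tumor, 0.966 on the non-malignant and 1.02 on the control array. The 8 negative control probes reached up to 34.8, 31.6 and 40.0 in the same order.

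The miR-181a probe, for the member best known as a thymocyte miRNA, had a net Hy3 signal of 43.8 ± 2.63 in tumor cells, 80.9 ± 6.53 in non-malignant ICN1 and 175 ± 5.75 in control cells (SD, n = 4 spots on each array). The 3 sets of spots did not overlap, and the tumor value lay just above the brightest negative control probe of that array. The pool, the same mixture on every array, gave at those spots a net Hy5 of 90.7 ± 6.87 on the tumor, 55.9 ± 6.31 on the non-malignant and 67.1 ± 6.74 on the control array (n = 4 each). The pool signal was thus highest on the array where the sample signal was lowest.

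The miR-181a* probe, for the opposite strand of the miR-181a hairpin, followed the same order. Its net Hy3 was 40.3 ± 3.04 in tumor, 80.7 ± 7.39 in non-malignant ICN1 and 172 ± 1.502 in control cells (n = 4 each), again without overlap of spots. The tumor value again lay just above the brightest negative control probe of that array, at 34.8. Here the pool signal was steadier, at 67.0 ± 2.95 on the tumor, 81.4 ± 7.34 on the non-malignant and 88.0 ± 2.56 on the control array.

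The array also holds a probe for miR-181a* with 1 mismatch. It had 20.02, 25.1 and 49.4 units of net Hy3 on the tumor, non-malignant and control arrays, which is 49.7%, 31.1% and 28.8% of the perfect-match signal. At least 3 of its 4 spots passed the detection limit on every array, and the share was largest where the perfect-match signal was dimmest. On the tumor and non-malignant arrays the mismatch signal lay below the brightest negative control probe (34.8 and 31.6). The shares on these arrays therefore cannot be told from the level of negative controls.

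miR-181b, made from the genes beside those of miR-181a, had a net Hy3 of 115 ± 6.03 in tumor, 150 ± 11.7 in non-malignant ICN1 and 234 ± 6.56 in control cells (n = 4 each). The order was that of miR-181a and the spots did not overlap. Its pool signal was 151 ± 6.68, 114 ± 9.92 and 133 ± 2.25 on the same arrays, also highest on the tumor array.

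miR-181c and miR-181d, from the gene pair on chromosome 8, showed other patterns. miR-181c gave nearly the same net Hy3 everywhere, 119 ± 0.912 in tumor, 114 ± 1.94 in non-malignant ICN1 and 120 ± 1.83 in control cells (n = 4 each). Net signals are not corrected for array brightness. Its net Hy3 differed by -0.02 (log2) in tumor against control cells, which is 1.31 above the median change of 92 mouse miRNA probes described below. miR-181c is not among the 92, which were detected in both dyes, so 1.31 reflects the lower median and is no rise of its signal. Its Hy5 signal was below the local background on every array, at -5.62, -12.2 and -7.74 in that order, and 0 of 4 spots on each passed the detection limit. The pool contains all 3 samples, so the probe was bright for each sample and dark for their mixture. The cause was not tested.

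miR-181d had a net Hy3 of 86.7 ± 3.22 in tumor cells (n = 4 spots) and 114 ± 0.742 in control cells (n = 3 spots), with no overlap. The pool gave 66.3 ± 2.46 and 64.5 ± 1.48 there. On the non-malignant array all 4 of its spots carried the quality flag that leads to exclusion, so miR-181d has no value in comparisons with that array.

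**Figure D1:**
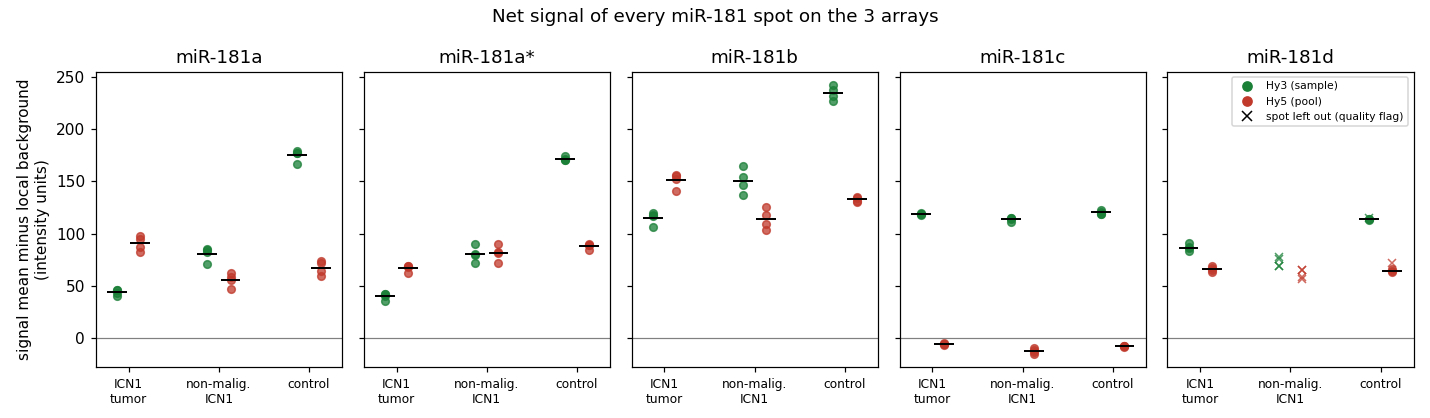
Net signal (signal mean minus local background, in intensity units, linear axis) of each spot for the 5 probes on the tumor, non-malignant and control arrays; green is the sample (Hy3), red the pool (Hy5), black lines are means over usable spots and crosses are spots left out. The Hy3 means of miR-181a, miR-181a* and miR-181b are lowest in tumor and highest in control cells, those of miR-181c lie between 114 and 120, and its Hy5 spots lie below 0.

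The ratio of sample to pool corrects for differences between arrays that touch both dyes alike. It was taken as log2(Hy3/Hy5) after background correction and loess normalization within each array, so 0 means equal to the pool. miR-181a stood at -0.63 ± 0.033 in tumor, -0.01 ± 0.027 in non-malignant ICN1 and 0.60 ± 0.036 in control cells (SD, n = 4 spots). miR-181a* stood at -0.52 ± 0.039, -0.23 ± 0.022 and 0.40 ± 0.018, and miR-181b at -0.21 ± 0.017, 0.13 ± 0.018 and 0.43 ± 0.020, in the same order of arrays. For these 3 probes each neighbouring pair of arrays differed by more than the spread of the spots.

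miR-181c stood at 1.26 ± 0.013 in tumor, 1.11 ± 0.028 in non-malignant ICN1 and 1.11 ± 0.026 in control cells. The last of these pairs did not differ beyond the spots' spread. miR-181d stood at 0.13 ± 0.023 in tumor and 0.18 ± 0.012 in control cells.

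For a pool of equal parts the mean of the 3 linear ratios would be 1, were they raw ratios. Here they follow an offset of 50 in both dyes and loess, which themselves draw ratios toward 1. A mean near 1 is thus no check of the pool. That mean was 1.05 for miR-181a, 0.956 for miR-181a* and 1.10 for miR-181b, against a median of 1.06 over the 146 mouse miRNA probes detected in Hy3 on all 3 arrays. For miR-181c it was 2.24. Only 2 of the 146 probes exceeded 2. The missing pool signal by itself was common, since 44 of these 146 probes (30.1%) were detected in Hy5 on no array, but their median was 1.14 and miR-181c had the highest value among them. The ratios of miR-181c therefore rest on no measured pool signal, and their size depends on the offset.

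**Figure D2:**
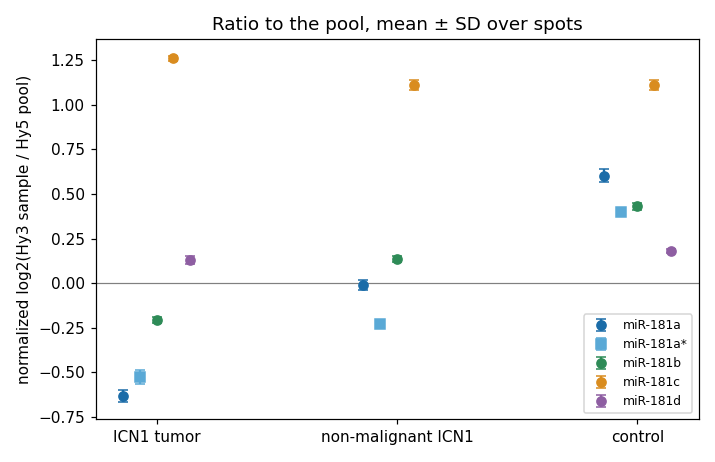
Normalized log2 ratio of sample to pool (vertical axis) for each probe on the tumor, non-malignant and control arrays, as mean ± SD over replicate spots. miR-181a runs over -0.63, -0.01 and 0.60, miR-181c stays above 1.1 on every array, and miR-181d has no value on the non-malignant array.

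The first comparison asked how the family stood in cells that express ICN1 but have not become malignant. miR-181a* and miR-181a were lower than in control cells by similar amounts, 1.55-fold (log2 difference -0.63 ± 0.014, standard error over spots) and 1.53-fold (-0.61 ± 0.023). miR-181b was 1.23-fold lower (-0.30 ± 0.014), and miR-181c, with no measured pool signal, had a value of 0.00. The 3 lower probes stayed below 0 under all 13 processing settings run, the reported one included, and miR-181c was below 0 in 3 of 12. The settings varied the background correction, the normalization, the spots kept and the filter on dim probes, and one read Hy3 alone, quantile-normalized between arrays without the pool. Those that change only the filter on dim probes cannot alter the value of a single probe.

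None of the 4 probes with a value reached a 2-fold difference, the size used as a threshold. Across the 167 mouse miRNA probes detected on at least 1 of both arrays, 1.8% were 2-fold or more lower and 4.19% were 2-fold or more higher. The median of the 4 family values was -0.46, beside -0.03 over all 167. Among those 167, 7 probes had a lower value than miR-181a*, 10 than miR-181a and 35 than miR-181b. Spot by spot, the difference of miR-181a* ran only from -0.64 to -0.62.

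Taken apart by dye, these probes moved more in the sample channel than in the pool. The net Hy3 of miR-181a differed by -1.11 on the log2 scale in non-malignant ICN1 against control cells. That of miR-181a* differed by -1.09. The median of 92 mouse miRNA probes detected in both dyes on all arrays was -0.33, so relative to it miR-181a stood at -0.78 and miR-181a* at -0.76. The SD over the 92 probes was 0.63. The pool channel moved by -0.14 and 0.01 relative to its own median.

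ICN1 tumor cells were next compared with control thymocytes. miR-181a was 2.36-fold lower (-1.24 ± 0.025), miR-181a* 1.90-fold lower (-0.93 ± 0.021) and miR-181b 1.56-fold lower (-0.64 ± 0.013), and these signs held in all 13 settings. miR-181d differed by -0.05 ± 0.013 and was above 0 with loess fitted to mouse miRNA probes (0.30) and with Hy3 alone (0.21). The value of miR-181c, with no measured pool signal, was 0.15, below 0 without normalization (-0.04) and 0.55 with Hy3 alone.

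Of the 5 probes 1 was 2-fold or more lower, miR-181a, where 14.7% of all 177 tested probes were lower by that much and 0.565% higher. The family median was -0.64, beside -0.11 over all probes. Lower values were common in this comparison, since 65.0% of the 177 were below 0, and 17 probes had a lower value than miR-181a and 29 than miR-181a*. The call for miR-181a was lost with loess fitted to mouse miRNA probes (-0.89) and with Hy3 alone (-0.88). With that loess the median of all 177 was 0.04, and 9 were lower and 6 higher at 2-fold, against 26 and 1 as reported. With the background simply subtracted, miR-181a was at -2.18.

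Both dyes contributed to the miR-181a value. The whole tumor array was dimmer than the control array, with a median change of -1.33 in Hy3 and -0.51 in Hy5 over the 92 probes. Relative to these medians, miR-181a changed by -0.67 in the sample channel and by 0.94 in the pool channel, so the pool changed more than the sample. miR-181a* changed by -0.76 in the sample channel and by 0.11 in the pool. For miR-181b the sample channel lay above the median by 0.30, opposite in sign to its ratio, and the pool by 0.69.

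The 92 probes spread widely, with an SD of 0.95 in the sample channel and 0.58 in the pool. The sample-channel values of miR-181a, miR-181a* and miR-181b lay within that SD. That of miR-181d, 0.94, lay just within it, and that of miR-181c, 1.31, lay beyond it. Neither miR-181d nor miR-181c is among the 92, and their net Hy3 itself differed by -0.39 and -0.02. With Hy3 alone miR-181b differed by -0.06. In a sample of whole cell RNA, fewer cells that carry a miRNA and less of it per cell cannot be told apart.

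**Figure D3:**
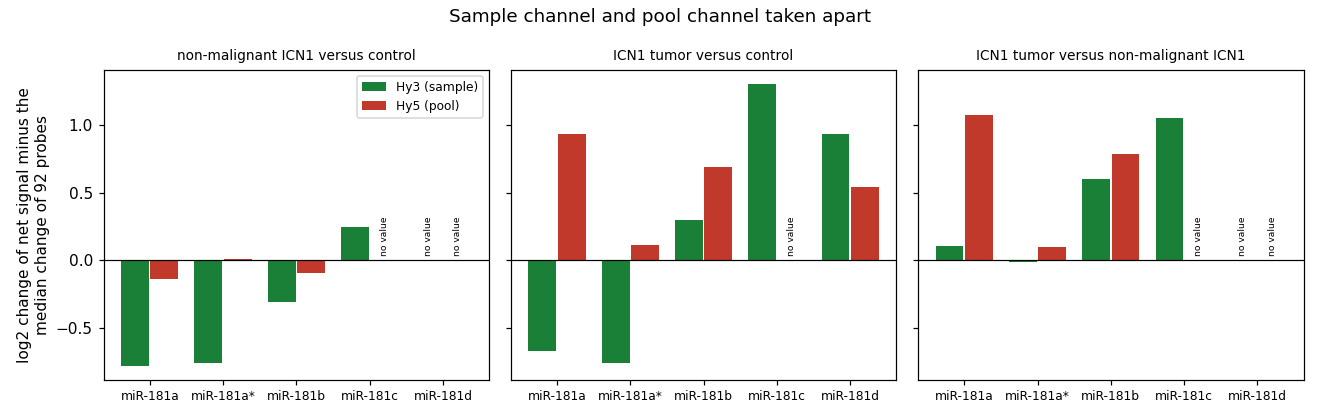
Change of the net signal (log2, vertical axis) of each probe relative to the median change of 92 mouse miRNA probes, for the sample channel (green, Hy3) and the pool channel (red, Hy5), in the 3 comparisons; bars start at 0. In tumor against control, miR-181a has -0.67 in Hy3 and 0.94 in Hy5, while miR-181a* has -0.76 and 0.11, and miR-181b lies above 0 in both dyes.

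The last comparison, tumor against non-malignant cells that both express ICN1, shares an array with each of the others. miR-181a differed by -0.62 ± 0.021, 1.54-fold lower, and miR-181a* by -0.29 ± 0.022, both below 0 in all 13 settings. miR-181b differed by -0.34 ± 0.012, and by 0.26 with Hy3 alone. The value of miR-181c, 0.15, again has no measured pool signal behind it, and was 0.54 with Hy3 alone.

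None of these 4 probes was at 2-fold, beside 9.77% of 174 tested probes lower and 0.575% higher by that much. The median of the 4 was -0.32, and of all 174 it was -0.08. Here miR-181a differed by -0.89 in net Hy3, 0.11 above the median of -0.99, and by -0.33 in the setting with Hy3 alone. Its pool signal differed by 0.70, which was 1.08 above the pool's median. Whether the median shift came from the array or the cells was not tested. Relative to the medians, miR-181a* was at -0.01 in the sample channel and 0.10 in the pool. miR-181b was at 0.61 in the sample channel and 0.79 in the pool. miR-181c, with no pool value and not among the 92 probes, was at 1.06 in the sample channel, where its net Hy3 itself differed by 0.06. The SD over the 92 probes was 0.93 in the sample channel and 0.69 in the pool.

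**Figure D4:**
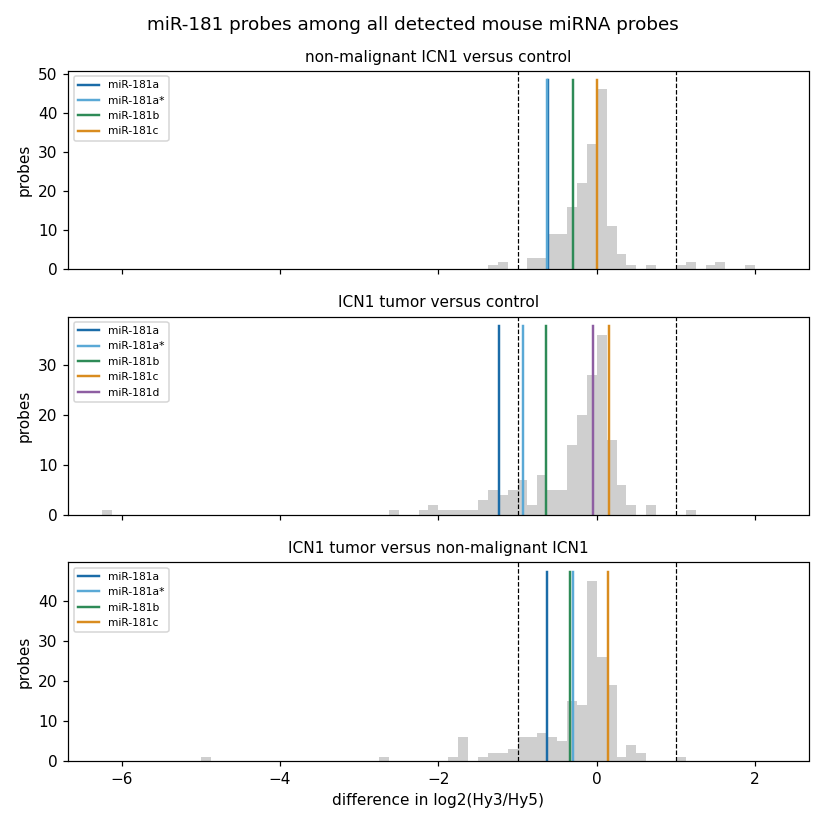
Number of detected mouse miRNA probes (grey, vertical axis) by their difference in log2(Hy3/Hy5) in the 3 comparisons, with coloured lines at the miR-181 probes and dashed lines at a 2-fold difference. miR-181a at -1.24 in tumor against control is the one family line beyond a dashed line, and lost that place in the settings with Hy3 alone and with loess fitted to mouse miRNA probes.

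The probes nearest to miR-181a over the 3 arrays, by Euclidean distance between their log2 ratios among 173 candidates, were miR-106b at 0.22, let-7d at 0.27 and the shared let-7a-e probe at 0.27. miR-106b stood at -0.69 in tumor, 0.17 in non-malignant ICN1 and 0.50 in control cells. let-7d stood at -0.45, 0.18 and 0.66 in that order. This likeness rests on 3 points.

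A list of miRNAs with described roles in T-cell development or receptor signalling, outside the family, had 30 probes tested in each comparison. In tumor against control cells 8 of 30 were 2-fold or more lower and 0 higher, with a median of -0.66, beside 26 of all 177 tested probes lower (14.7%) and a median of -0.11. They were miR-142-5p (-1.78) and miR-142-3p (-1.29), both arms of a miRNA of all blood cells, let-7a-e (-1.45), let-7a (-1.45) and let-7d (-1.11), miR-29a (-1.13), miR-128a (-1.09) and miR-128b (-1.01). In control cells their net Hy3 ran from 310 (miR-128b) to 12456 (miR-142-3p). The list was not matched to all tested probes for brightness, and the offset shrinks differences between dim probes. Its probes also overlap, as with let-7a and let-7a-e, and miR-20a counts more than once. The excess over all probes was not tested. In non-malignant against control cells 0 of 30 were lower and 2 were higher, miR-223 (1.19) and miR-21 (1.13), beside 3 lower (1.8%) and 7 higher (4.19%) of all 167. In tumor against non-malignant cells 3 of 30 were lower, miR-223 (-1.43), miR-142-5p (-1.33) and miR-142-3p (-1.15), and 0 higher, a share near that over all 174 tested probes (17 lower, 9.77%).

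In net Hy3, which is not corrected for array brightness, markers of blood cells differed between the groups. Epithelial markers and the detected stromal marker differed little, but part of these values lay at the level of negative control probes. The brightest negative control probe had 34.8 on the tumor, 31.6 on the non-malignant and 40.0 on the control array. miR-145 and miR-200c lay below it on every array, so their values cannot measure stromal or epithelial content. miR-144 in tumor cells and miR-150 in tumor and non-malignant ICN1 cells also lay below it. The median net Hy3 of 92 probes differed by -1.33 (log2) in tumor against control cells. Ratios to the pool there differed by -6.13 for miR-451, -1.02 for miR-144, -0.76 for miR-486, -0.24 for miR-223 and -0.20 for miR-150. Those of both miR-142 probes are given above. For miR-200b, miR-203, miR-200c and miR-145 they were 0.21, 0.21, -0.06 and -0.004. The 3 erythroid probes (miR-451, miR-144 and miR-486) were detected on all arrays, with a summed net Hy3 of 642 in tumor, 11753 in non-malignant ICN1 and 24002 in control cells. Nearly all of this was miR-451, at 505.5, 11409 and 23628. miR-486 had the same order, that of miR-181a, with 105, 197 and 285, but miR-144 was highest in non-malignant ICN1 cells, with 31.6, 147 and 89.1. The myeloid miR-223 had 65.1, 367 and 164. Both miR-142 probes, for all blood cells, summed to 7456, 16843 and 21372. miR-150, a mark of mature lymphocytes, was not detected in tumor cells and had 18.7, 24.8 and 44.4. Of 5 stromal probes 1 was detected on each array, miR-145, with 26.7, 23.9 and 28.3. All 5 summed to 32.2, 23.9 and 53.1, the rest coming from probes not detected. Of 4 epithelial probes 3 were detected on each array, and all 4 summed to 146, 161 and 151. Their part in the family's differences was not tested. The array reads no CD4 or CD8, and the miRNAs that mark double-positive cells are family members themselves, so the labelled cell type could not be checked independently.

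**Figure D5:**
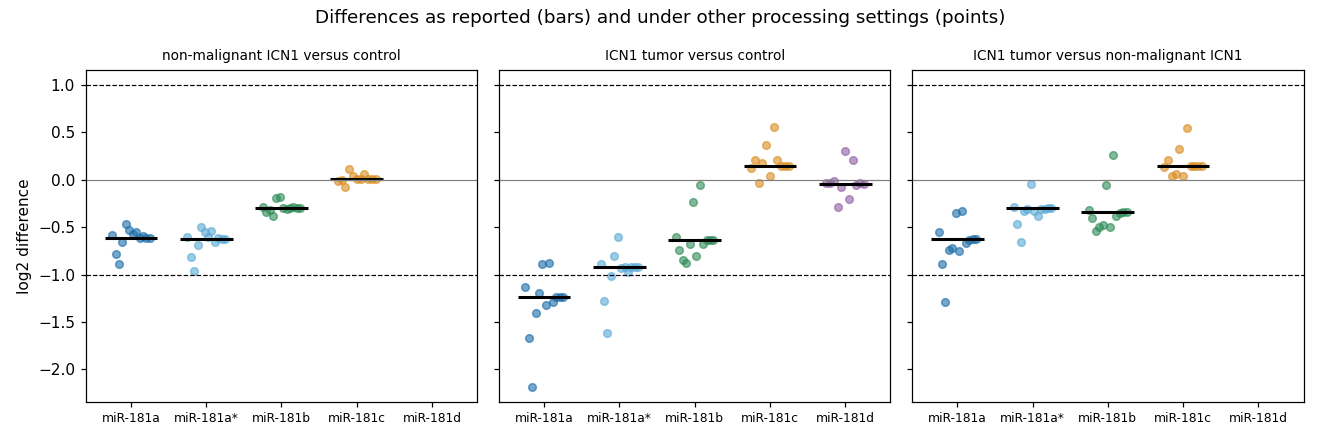
Log2 difference (vertical axis) of each probe in the 3 comparisons, with a black bar at the reported value, points for the other processing settings and dashed lines at a 2-fold difference. In tumor against control miR-181a spans -2.18 to -0.88 and miR-181a* -1.62 to -0.60, miR-181b lies below 0 throughout, and miR-181c and miR-181d have points on both sides of 0.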

How the data were processed

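Total RNA was extracted with Trizol, per the labels' protocols. The deposited scanner tables hold spot signal and background, each a linear intensity that was not normalized, and a quality flag, a score, per the file headers. The sources used here do not name the scanner software. The deposited table of processed values was not used, since its row numbers do not pair with probe identifiers.

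Spots flagged 3 were dropped (51 on the tumor, 125 on the non-malignant and 72 on the control array). From signal mean and background median, normexp with offset 50, which shrinks differences between dim probes, and then global loess gave log2(Hy3/Hy5). Control and mismatch spots had weight 0 in loess (R 4.3.3, limma 3.58.1). The steps were tested on simulated data with changes drawn evenly in both directions. That test does not cover mostly lower values, as in tumor against control cells. A probe's spots were averaged. A probe was detected if at least 50% of its usable spots were, and tested if detected on at least 1 of the 2 arrays compared. Human-named probes were matched to mouse genes by RefSeq symbol or synonym, and all 6 family genes matched (GRCm38.p6). Python 3.11.15, pandas 2.3.3 and matplotlib 3.10.9 were also used.

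Probes named are the family, its mismatch probe, the 3 nearest probes and T-cell miRNAs at 2-fold, the threshold for a call. Members and lists (T-cell, blood, mature lymphocyte, erythroid, myeloid, stromal, epithelial) were chosen with earlier results of these data known. The separate look at each dye and the mean of the 3 ratios were chosen after seeing the values. The number of arrays limits the precision.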

Additional observations from a re-analysis of the deposited data

Results flagged for a closer look

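miR-181d on the non-malignant ICN1 array was the 1 result set aside for a closer look, because spots outside the comparisons carried signal. All 4 spots had the quality flag that leads to exclusion, yet their net Hy3 signal was 73.0 ± 4.43 (SD, n = 4 spots), against at most 4.24 in 320 empty spots and at most 31.6 in the 8 negative control probes of that array. All 4 spots passed the detection limit in Hy3. With all spots kept, miR-181d differed by -0.29 in non-malignant ICN1 against control cells and by 0.26 in tumor against non-malignant ICN1 cells. These differences were not tested, and the sources used here do not say why the spots carry that mark.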

How the results depend on the processing

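The number of family probes at 2-fold was 1 in tumor against control cells. It was 2, miR-181a and miR-181a*, with a normexp offset of 10, with plain background subtraction and without normalization, and it was 0 with Hy3 alone and with loess fitted to mouse miRNA probes. In tumor against non-malignant ICN1 cells it was 0, and 1 with plain background subtraction (miR-181a at -1.29). In non-malignant ICN1 against control cells it was 0 under all 12 alternatives. No called family value changed sign. Of 152 single-probe values under the alternatives, 70 moved by less than the spots' SD and 82 by more, and the alternatives that change only the filter on dim probes left them as they were. Plain subtraction gave miR-181c no value, as its pool signal lies below background. Loess on mouse miRNA probes moved the median of all 177 probes in tumor against control to 0.04, against -0.11 as reported, with 9 lower and 6 higher at 2-fold against 26 lower and 1 higher. In non-malignant ICN1 against control cells the split was 1 lower and 7 higher there, 1 and 5 with Hy3 alone, 7 and 10 with plain subtraction, and 3 and 7 as reported. Plain subtraction gave 43 lower and 4 higher in tumor against control, and 29 lower and 2 higher in tumor against non-malignant ICN1 cells. In that last comparison loess on mouse miRNA probes gave 12 lower and 3 higher, beside 17 and 1 as reported. The cause was not tested. A slide or scan block could not be fitted, since each group has 1 array. No paired analysis was possible because each group has 1 sample. Low signal over background limits the family values, with a net Hy3 of 4.31 background SDs for miR-181a and 4.09 for miR-181a* in tumor cells, and a net Hy5 of 3.84 for miR-181a on the non-malignant array and below 0 for miR-181c on all 3 arrays.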
